A study of Bos taurus with 7 samples.

Results

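miR-122, miR-192 and miR-215 are 3 of the 744 bovine miRNAs carried by a 1-colour Agilent microarray that was used to profile plasma RNA of Japanese-Black cows (Bos taurus) on day 21 after artificial insemination. They were taken by name, as every non-control spot annotated to bta-miR-122, bta-miR-192 or bta-miR-215, and all 3 were found on all 7 arrays. All 7 cows had controlled estrus and were inseminated. At blood collection 4 were pregnant and 3 were non-pregnant, and each array holds the plasma of a separate cow. No other treatment separates the groups in the labels, and the labels give no age. The comparison asks whether circulating miRNAs differ between early pregnancy and its absence. Non-pregnant cows are numbered 1, 3 and 4, as in the labels.

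A miRNA is a short RNA that guides Argonaute proteins to matching messenger RNAs and represses them, chiefly through its seed near the 5′ end. miR-122 is made by hepatocytes at very high levels, where it takes part in lipid and cholesterol metabolism, and its release into plasma is widely used as a sign of liver injury. miR-192 and miR-215 share a seed, are enriched in the epithelium of gut, liver and kidney, and are induced by p53. Each is encoded close to a copy of miR-194. miR-223, which served as the blood-cell comparison, is a miRNA of neutrophils, monocytes and platelets. In plasma, a change in the number of releasing cells and a change in the amount released per cell cannot be told apart.

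The array reads each miRNA through short DNA probes complementary to its 3′ part, so the probe sequences show what was measured and which miRNAs could be confused. The longest probe of each miRNA is given 5′ to 3′, and capitals mark the run that the miR-192 and miR-215 probes share.
miR-122, 19 bases: caaacaccattgtcacact
miR-192, 18 bases: ctggCTGTCAATTCATAG
miR-215, 19 bases: tgtCTGTCAATTCATAGgt
miR-223, 21 bases: tggggtatttgacaaactgac
The stretch of miRNA each pairs with is agugugacaaugguguuug for miR-122, cuaugaauugacagccag for miR-192 and accuaugaauugacagaca for miR-215. The miR-192 and miR-215 probes share an unbroken run of 14 bases. Aligned on that run, 16 of 17 overlapping bases are identical and 1 differs, so their signals are uncertain as separate measurements. The miR-122 probe shares at most 5 bases in a row with either.

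On UMD 3.1 (bosTau6), the build of the array design, the probe of miR-122 is placed at chr24:58095660-58095677 on the plus strand. That of miR-192 lies at chr29:43731685-43731701, also plus, and that of miR-215 at chr16:24305752-24305769 on the minus strand. The design lists 1 position fewer than each of these probes has bases. It places the 16-base miR-194 probe at both chr16:24306050-24306065 (minus) and chr29:43731480-43731495 (plus), next to miR-215 and to miR-192. In RefSeq's gene table for the later assembly ARS-UCD2.0, MIR192 overlaps the span of EHD1, an endocytic recycling gene, and MIR194-2 is listed after it. On UMD 3.1 the miR-194 probe lies at lower coordinates than that of miR-192, so their order along a transcript was not determined. MIR215 overlaps the span of IARS2, the mitochondrial isoleucyl-tRNA synthetase gene, and MIR194-1 is listed after it. No other gene overlaps MIR122 there. The table lists no exons, so intronic or exonic position was not determined.

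The arrays differed widely in brightness. Their summed miRNA signal ran from 12080 in non-pregnant 1 to 101065 in pregnant 3, and they detected 45 (non-pregnant 1) to 101 (pregnant 3) miRNAs. The pregnant arrays lie in slide row 1 and the non-pregnant arrays in slide row 2 of a single slide, so slide row and pregnancy cannot be told apart.

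miR-122 was present in the plasma of both groups and varied strongly from cow to cow. The software's intensity per miRNA, which is the sum of the signals of the probes it calls detected, was 48.8, 19.9 and 24.3 in pregnant 1, 2 and 4. It was 21.9, 3.26 and 12.7 in non-pregnant 1, 3 and 4. Pregnant 3 was not called detected and carries the software's stand-in of 0.1. The groups overlap, with non-pregnant 1 between pregnant 2 and pregnant 4.

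In pregnant 3, miR-122 missed the detection rule narrowly on its 19-base probe. Per the file headers, a probe counts as detected when its signal exceeds 3 times its error. The 19-base probe reached 2.93 times its error in pregnant 3 and 3.01 times in non-pregnant 3. The mean spot signal of that probe was 5.96 ± 1.20 (SD, n = 9 spots) in pregnant 3 and 4.91 ± 1.43 (SD, n = 10 spots) in non-pregnant 3. The cow that was not called detected was thus at least as bright on this probe as the one that was. Neither array had a spot of it well above background, the software's stricter call. The 18-base probe missed the rule in both, at 1.53 times its error in pregnant 3 and 2.36 times in non-pregnant 3. Its mean was the lower in pregnant 3, at 3.02 against 3.76 in non-pregnant 3. The intensity of 3.26 in non-pregnant 3 thus rests on the 19-base probe alone, and miR-122 lay near background in both cows.

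Spot signals of the 19-base probe gave the same picture without that rule. The mean was 49.3 ± 2.58 (SD, n = 10 spots) in pregnant 1, 20.05 ± 3.24 (SD, n = 10 spots) in pregnant 2 and 25.1 ± 3.38 (SD, n = 9 spots) in pregnant 4. It was 22.9 ± 1.21 (SD, n = 8 spots) in non-pregnant 1 and 12.8 ± 1.32 (SD, n = 8 spots) in non-pregnant 4. Over all 7 cows the highest mean was 10.04 times the lowest on this probe, and 8.47 times with both probes summed. The SD of spots covers technical noise within an array and not the spread between cows. The 18-base probe followed the 19-base probe, at 0.444 to 0.507 of its signal on 6 arrays and at 0.766 in non-pregnant 3. The 19-base probe averaged 25.1 ± 18.1 (SD, n = 4) over pregnant cows. Over non-pregnant cows it averaged 13.5 ± 8.99 (SD, n = 3), which is 11.6 lower (two-sided exact permutation p = 0.400, adjusted over the 3 miRNAs 0.400).

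**Figure D1:**
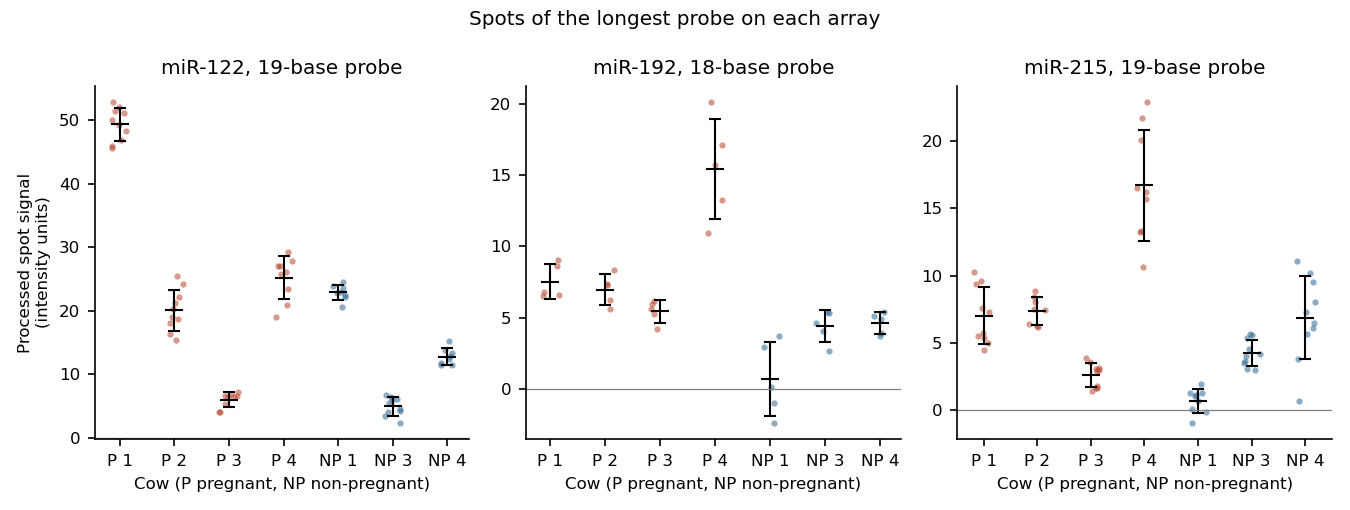
Processed signal of each spot (points, intensity units) of the longest probe of miR-122, miR-192 and miR-215 by cow, pregnant (P) in red and non-pregnant (NP) in blue, with the mean and SD of spots in black; each panel has its own scale. Pregnant 1 is highest for miR-122 at 49.3, and pregnant 4 is highest for miR-192 at 15.4 and for miR-215 at 16.7.

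miR-192 was near the limit of the array. It was called detected in pregnant 1, 2 and 4, with intensities of 2.49, 2.31 and 5.11, and in none of the 3 non-pregnant cows nor in pregnant 3. Of 124 miRNAs detected on at least 1 array, 2 (1.61%) were called detected in at least 3 of 4 pregnant and in no non-pregnant cow. Fisher's exact test gave p = 0.143, and 0.429 adjusted over the 3 miRNAs. Only in pregnant 4 were over 50% of the spots well above background.

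All of its intensity came from the 18-base probe. That probe read 7.51, 6.96, 5.43 and 15.4 in pregnant 1 to 4, and 0.689, 4.43 and 4.60 in non-pregnant 1, 3 and 4. Without scaling, every pregnant cow lay above every non-pregnant cow. The nearest were pregnant 3 and non-pregnant 4, whose spot SDs of 0.778 and 0.759 are about as large as the gap. The 88 miRNAs tested are those called detected on at least 3 arrays, and miR-192 is among them through pregnant cows alone. Its lean towards the pregnant group is thus partly set by that filter. Of these 88, 15.9% were likewise higher on every pregnant array on their longest probe without scaling, and 0% on every non-pregnant array. The group means of miR-192 were 8.83 ± 4.48 (SD, n = 4) and 3.24 ± 2.21 (SD, n = 3), 5.59 apart (two-sided exact permutation p = 0.0571, adjusted over the 3 miRNAs 0.171; the smallest possible is 0.0286). Of the 88, 2 (2.27%) had an exact permutation p under 0.05 before adjustment on this measure, and none of the 3 members did. With each signal divided by its array's 75th percentile, the groups overlapped. Pregnant 3 was then the lowest of all cows for miR-192 (exact permutation p = 0.229). The shorter probes of 15, 16 and 17 bases had no spot well above background on any array, and their means ran from -3.90 to 1.78.

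miR-215 was likewise dim, and its groups overlapped. It was called detected in pregnant 1, 2 and 4, at 4.66, 4.90 and 11.1, and in non-pregnant 4, at 4.57 (Fisher's exact p = 0.486, and 0.729 adjusted over the 3 miRNAs). Of the 124 miRNAs detected on at least 1 array, 8 (6.45%) were detected in at least 3 pregnant and at most 1 non-pregnant cow. The 19-base probe carried all of it, with 7.02, 7.39, 2.62 and 16.7 in pregnant 1 to 4 and 0.717, 4.26 and 6.89 in non-pregnant 1, 3 and 4. Its pregnant cows averaged 8.43 ± 5.91 (SD, n = 4), its non-pregnant ones 3.95 ± 3.096 (SD, n = 3), 4.47 apart (two-sided exact permutation p = 0.314, adjusted 0.400). Pregnant 3 was below non-pregnant 3 and 4. The 18-base probe had no spot well above background on any array.

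**Figure D2:**
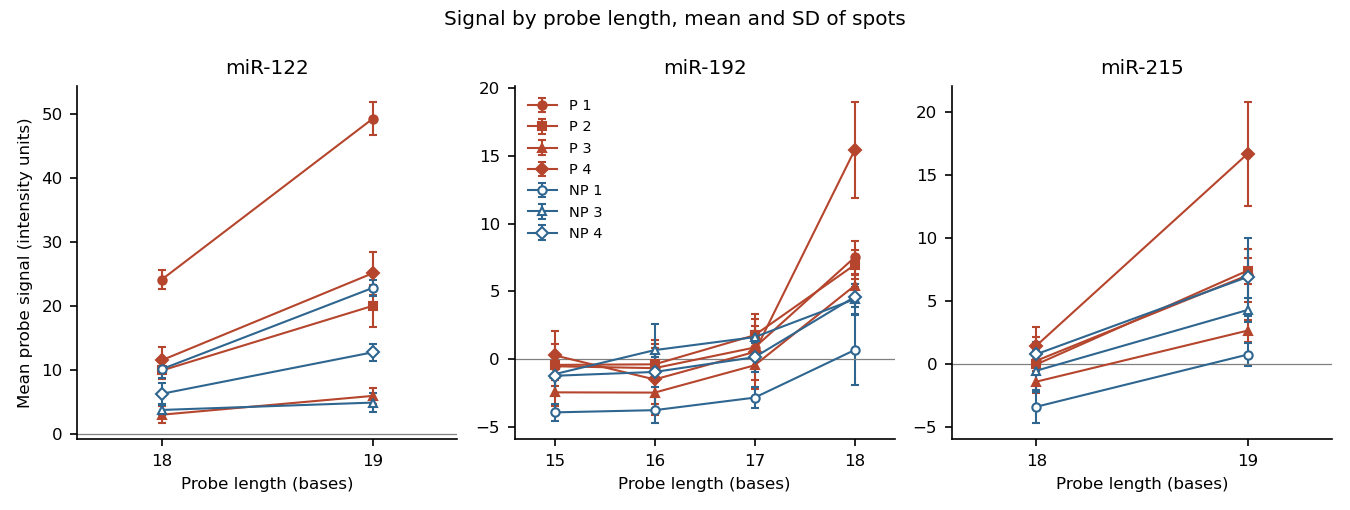
Mean signal (intensity units, error bars the SD of spots) of each probe of miR-122, miR-192 and miR-215 against probe length in bases, 1 line per cow, pregnant filled red and non-pregnant open blue. Both miR-122 probes carry signal, while the highest signals of miR-192 (15.4) and miR-215 (16.7) are at 18 and 19 bases; non-pregnant 1 starts lowest, at -3.90 on the 15-base miR-192 probe and -3.43 on the 18-base miR-215 probe.

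The zero line itself differed between arrays. Over all probes detected on no array, the median signal was -2.34 in non-pregnant 1 and between -1.03 and -0.111 on the other 6. With that median subtracted and no scaling, miR-192 was still higher in every pregnant cow than in any non-pregnant one, as were 14.8% of the 88. Its mean became 9.37 ± 4.16 (SD, n = 4) in the pregnant group. It became 4.40 ± 1.21 (SD, n = 3) in the other, 4.97 lower (exact permutation p = 0.0571, adjusted over the 3 miRNAs 0.171). On this measure too 2.27% of the 88 had an exact permutation p under 0.05, none of them a member. For all 3 miRNAs the tests after subtraction stood on the same side of the threshold as before.

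miR-192 and miR-215 followed each other across cows. Over the 7 cows the signals of their longest probes had Pearson's r = 0.954 (exact permutation p = 0.00476, adjusted over the 3 pairs 0.0143) and Spearman's rho = 0.857 (exact permutation p = 0.0238, adjusted 0.0714). Without pregnant 4 and non-pregnant 1, the cows farthest from the median of miR-215, r fell to 0.508 (exact permutation p = 0.350). The size of r thus depends on those cows together. Without pregnant 4 alone r was 0.81 (exact permutation p = 0.0389), and without non-pregnant 1 alone 0.94 (exact permutation p = 0.0333). The 14 shared probe bases allow each probe to read the other miRNA, and their part in this relation was not tested. miR-122 had r = 0.289 with miR-192 and r = 0.293 with miR-215 (exact permutation p = 0.467 and 0.459, adjusted 0.467 for both). The matching rho were 0.571 and 0.464 (exact permutation p = 0.200 and 0.302, adjusted 0.300 and 0.302). Without pregnant 4 and non-pregnant 1 these were 0.837 and 0.621. The cow brightest for miR-122, pregnant 1, was not the one brightest for the other two, pregnant 4. With miR-223, on the longest probes, miR-192 had r = 0.737 (exact permutation p = 0.0321, adjusted over 2 relations 0.0643) and miR-215 r = 0.683 (exact permutation p = 0.0770, adjusted 0.0770), with rho = 0.714 for both (exact permutation p = 0.0881). Without pregnant 2 and 4 these r were 0.509 and 0.162.

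As shares of the summed miRNA signal, all 3 were minor. miR-122 took 0.124%, 0.0578% and 0.103% in pregnant 1, 2 and 4, and 0.181%, 0.00463% and 0.0217% in non-pregnant 1, 3 and 4. The highest share was in non-pregnant 1, the dimmest array, and pregnant 3, the brightest array, has no detected value. With the stand-in value for pregnant 3 the group means were 0.0712% ± 0.0549 (SD, n = 4) and 0.0692% ± 0.0974 (SD, n = 3), 0.0020 percentage points apart (exact permutation p = 1). miR-192 took 0.00635% to 0.0216% and miR-215 took 0.00782% to 0.0467% on the arrays that detected them.

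**Figure D3:**
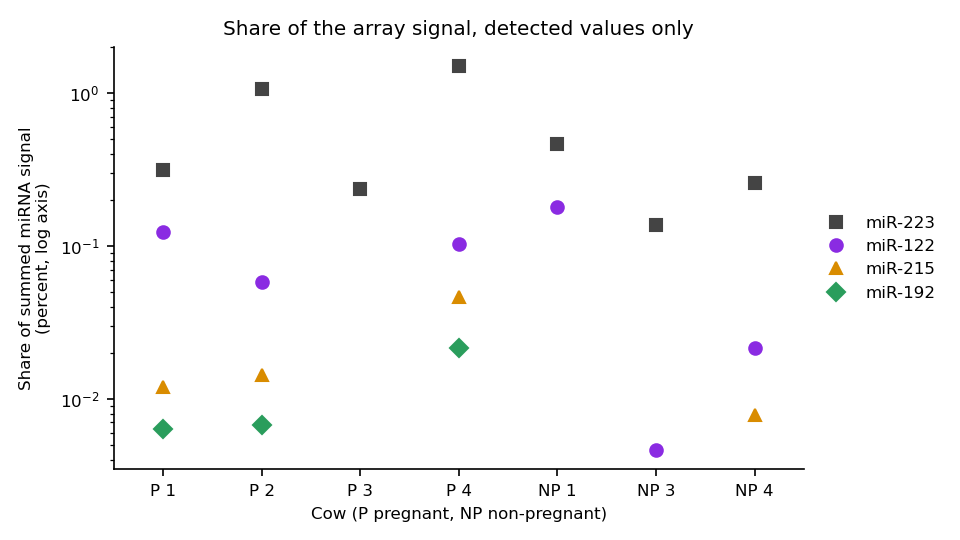
Share of the summed miRNA signal (percent, log axis) taken by miR-122, miR-192, miR-215 and the blood-cell miRNA miR-223 in each cow, detected values only. miR-122 spans 0.00463% to 0.181% and is missing in pregnant 3, while miR-223 spans 0.137% to 1.504%.

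To compare arrays, probe signals were divided by each array's 75th percentile over the 57 probes detected on all arrays, floored at 0.0122 (log2 -6.36) and averaged over the probes of a miRNA on the log2 scale. limma, an empirical Bayes linear model, was then run on the 88 miRNAs called detected on at least 3 arrays, which include all 3. miR-192 passed this filter through 3 pregnant cows alone, and miR-215 through 3 pregnant cows and 1 non-pregnant cow. No miRNA passed the Benjamini-Hochberg threshold of 0.05 (0%), 1 had an unadjusted p under 0.05, and per-miRNA exact permutation tests gave 0 at that level. On these levels 1 of the 88 (1.14%) was higher in every pregnant cow, and it was not 1 of the 3 members. The scaled log2 level of miR-122 was -4.13, -4.97, -6.36 and -4.61 in pregnant 1 to 4 and -3.50, -6.36 and -6.18 in non-pregnant 1, 3 and 4. The difference was 0.33 with a standard error of 0.86, or 1.26-fold (limma adjusted p = 0.967), and its 95% confidence interval of -1.75 to 2.41 spans large changes in both directions. Its sign turned when non-pregnant 3 (-0.18) or non-pregnant 4 (-0.088) was left out, and it was 1.25 without non-pregnant 1, 0.78 without pregnant 3, 0.034 without pregnant 1 and 0.19 without pregnant 4. In the authors' deposited log2 table, which leaves pregnant 3 blank as not detected, the limma difference was 1.57 (adjusted p = 0.628).

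On this scale miR-192 and miR-215 lay at or next to the floor. The floor of 0.0122 is a single scaled value, so it stands for a higher raw signal on a brighter array. The lowest scaled signal of a detected probe was 0.00518 in pregnant 3 and 0.0519 in non-pregnant 1. miR-451 in pregnant 3 was well above background and still lay at the floor. Which cows exceed the floor thus depends in part on array brightness, for miR-122 as well. miR-192 did not exceed the floor in pregnant 3 or any non-pregnant cow, and was highest at -5.96 in pregnant 4 (difference 0.13, standard error 0.12, limma adjusted p = 0.763). miR-215 did not exceed it in pregnant 1, pregnant 3 or any non-pregnant cow, and was highest at -5.50 in pregnant 4 (difference 0.27, standard error 0.23, limma adjusted p = 0.753). Without pregnant 4 the differences of miR-192 and miR-215 were 0.033 and 0.076. With all non-pregnant values at the floor neither difference could be negative, and no fold is given. All 3 differences were positive, as were 62 of the 88, whose median was 0.18. With normexp background correction the 3 were -0.11, -0.25 and -0.22, with a median of -0.19 over all 88, of which 8 were positive. That setting adds 50 units to every spot before scaling, more than the highest mean signal of any member probe (49.3). The sign of a dim miRNA under it thus depends in part on array brightness. With quantile scaling the median over all 88 was -0.017, and the difference of miR-122 was 0.012.

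Whether miR-122 varied with the blood-cell miRNA miR-223 depended on the scale. miR-223 was detected in all 7 cows, with intensities of 123, 369, 240 and 357 in pregnant 1 to 4 and 55.9, 96.5 and 152 in non-pregnant 1, 3 and 4. Its lowest cow, non-pregnant 1, and its highest, pregnant 2, had similar miR-122 intensities, at 21.9 and 19.9. Without scaling, r between the log2 levels was -0.036 (exact permutation p = 0.943) and rho was 0.018 (exact permutation p = 0.988), with p = 0.943 and 0.988 also after adjustment over 6 relations. With the signals of both probes summed and no floor, r was 0.0085 (exact permutation p = 0.985). After scaling, r was 0.56 (exact permutation p = 0.196, adjusted over 5 relations 0.245) and rho 0.70 (exact permutation p = 0.0897, adjusted 0.213). Both scaled levels share the array's divisor, so a positive relation is partly built into every scaled r given here. Without pregnant 2 and 4, the cows farthest from the median of miR-223, the scaled r was 0.86 (exact permutation p = 0.0333) and the unscaled one, without pregnant 2 and non-pregnant 1, 0.017. With 7 cows, missing the threshold does not show that the miRNAs vary separately.

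**Figure D4:**
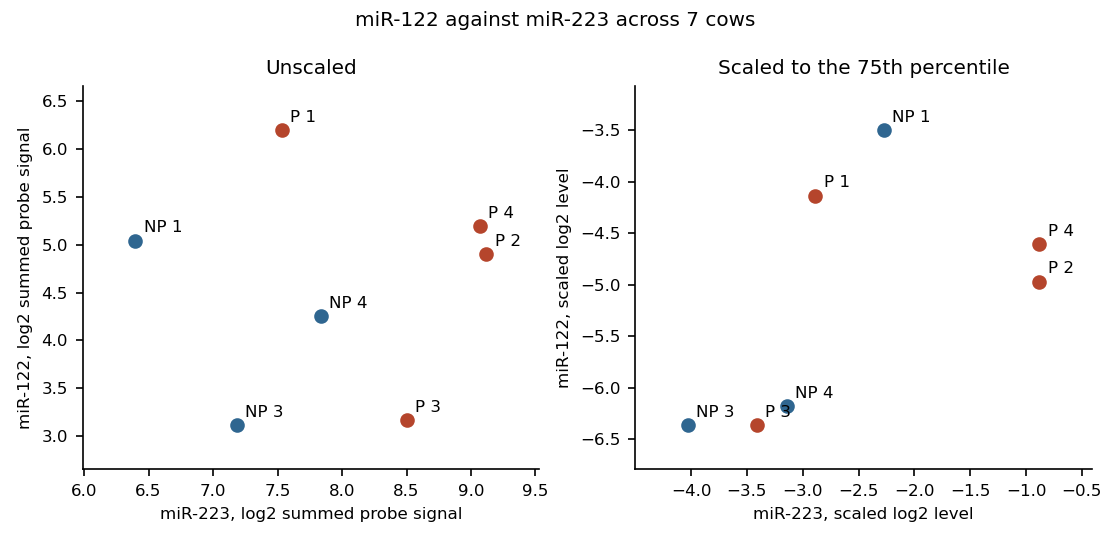
miR-122 against miR-223 in the 7 cows, pregnant (P) red and non-pregnant (NP) blue, as the log2 of the summed mean probe signals (left, r = 0.0085) and as log2 levels scaled to the array's 75th percentile (right, r = 0.56). Non-pregnant 1 is lowest for miR-223 on the left, and pregnant 3 and non-pregnant 3 are lowest for miR-122 in both panels.

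Scaled levels of miR-122 followed array brightness. The log2 of the 75th percentile ran from 7.43 in non-pregnant 1 to 10.68 in pregnant 3, and its r with the scaled miR-122 level was -0.89 (exact permutation p = 0.00714, adjusted over 5 relations 0.0357) and rho -0.88 (exact permutation p = 0.0151, adjusted 0.0754). The percentile divides the level, so a negative relation is built into this comparison. Without scaling, r was -0.48 (exact permutation p = 0.273, adjusted over 6 relations 0.792) and rho -0.74 (exact permutation p = 0.0706, adjusted 0.424). Without pregnant 3 and non-pregnant 1, the arrays of extreme brightness, the scaled r was -0.79, and without non-pregnant 1 alone it was -0.81 (exact permutation p = 0.0611). The 3 brightest arrays, pregnant 3 and non-pregnant 3 and 4, hold the 3 lowest miR-122 levels on both scales. Scaled miR-223 leaned the same way, with r = -0.62 (exact permutation p = 0.134) and rho = -0.86 (exact permutation p = 0.0238). Its unscaled r was 0.29 (exact permutation p = 0.528) and rho 0.036 (exact permutation p = 0.963). Without pregnant 3 and non-pregnant 1 its r was -0.97 scaled and -0.91 unscaled. These relations of miR-223 were outside the planned ones.

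**Figure D5:**
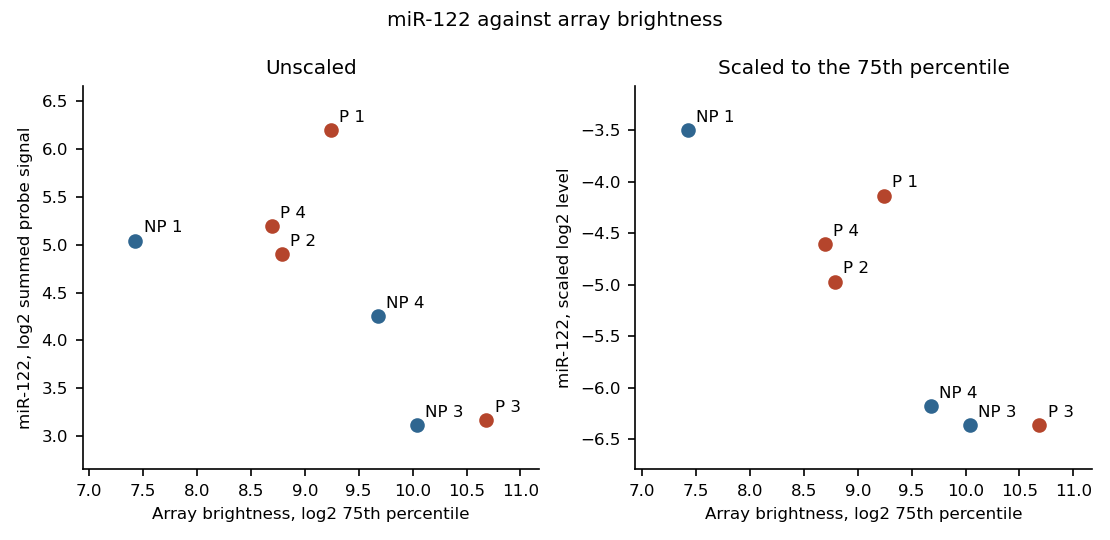
miR-122 in the 7 cows against array brightness (log2 of the 75th percentile over 57 probes), as the log2 of the summed mean probe signals (left) and as the scaled log2 level (right). On the right the points fall from -3.50 in non-pregnant 1 to the floor at -6.36 in non-pregnant 3 and pregnant 3.

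The difference between the log2 levels of miR-122 and miR-223 within an array cancels the divisor above the floor. It was -1.25, -4.09, -2.95 and -3.73 in pregnant 1 to 4, and -1.23, -2.34 and -3.04 in non-pregnant 1, 3 and 4. In pregnant 3 and non-pregnant 3 both miR-122 probes lay at the floor, so -2.95 and -2.34 are set by it. From summed probe signals without a floor these were -5.33 and -4.07. As a ratio of summed probe signals, miR-122 stood at 39.6% of miR-223 in pregnant 1 and 39.2% in non-pregnant 1, and at 2.48% to 8.35% in the other 5 cows. A cow of each group, both numbered 1, thus stood apart from the rest in the same direction. The log2 difference averaged -3.00 ± 1.26 (SD, n = 4) over pregnant cows and -2.20 ± 0.91 (SD, n = 3) over the rest, -0.80 apart (exact permutation p = 0.429). Without the floor the groups were -0.69 apart (exact permutation p = 0.543).

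Another 3 blood-cell miRNAs were set against miR-122 in the same way. On scaled levels r was 0.78 with miR-486 (exact permutation p = 0.0548) and 0.71 with miR-451 (exact permutation p = 0.0885), both miRNAs of red cells, and 0.22 with miR-142-5p of white cells (exact permutation p = 0.606). Adjusted over 5 relations these were 0.137, 0.147 and 0.606, and rho was 0.63, 0.59 and 0.16 (exact permutation p = 0.144, 0.170 and 0.729). With the 2 cows farthest from each miRNA's median left out, r was 0.77, 0.83 and 0.093. Without scaling r was -0.34, 0.095 and -0.33 (exact permutation p = 0.464, 0.853 and 0.481, adjusted over 6 relations 0.792, 0.943 and 0.792), so 2 of the 3 relations changed sign. None passed the threshold on either scale.

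Among the 71 other tested miRNAs called detected on at least 6 arrays, the scaled levels most like those of miR-122 over the 7 cows were those of miR-92a (r = 0.94), miR-3141 (r = 0.93) and miR-365-3p (r = 0.92). Least like it were miR-2412 (r = -0.78), miR-2328-3p (r = -0.75) and miR-2885 (r = -0.69). miR-223 ranked 28 of 71, and the median r was 0.46. All of these r share the array's divisor. Without scaling the r of the first 3 were -0.039, -0.34 and 0.72, so miR-365-3p alone of them kept a high value, and the median r was -0.33. miR-122 had the second-largest SD across cows of the 88 tested miRNAs on the scaled levels (1.16, rank 2, against a median of 0.35) behind miR-223 (1.23), and rank 29 without scaling (0.71, against a median of 0.38).

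The rest of the liver and gut miRNAs were mostly below detection. Of 6 liver miRNAs measured, 4 gave a detected value in any cow and 2, miR-122 and miR-192, did so in at least 3 cows. Both were tested and 0 called (0%), with a median difference of 0.23 that takes in miR-192, whose non-pregnant values lie at the floor. miR-148a, which is abundant in hepatocytes, was detected in pregnant 4 alone, at 5.09. miR-885 was detected at 10.03 in pregnant 3 and at 4.24 in non-pregnant 1. Pregnant 3, the cow in which miR-122 missed detection, thus had a liver-list miRNA detected. Of 10 miRNAs of gut and kidney epithelium, 3 were detected: miR-192, miR-215 and miR-375, a miRNA of endocrine cells and gut epithelium, in pregnant 1, 3 and 4 and in non-pregnant 3 (scaled difference 0.090). All 3 were tested and 0 called (0%), with a median difference of 0.13 against 0.18 over all tested. That median of 0.13 is the difference of miR-192, which could not be negative with its non-pregnant values at the floor. The medians can therefore not be compared.

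miR-194, which neighbours both miR-192 and miR-215 in the genome, was not detected in any cow. Its 15-base and 16-base probes had means below 0 on every array, from -3.54 to -0.516, and no spot well above background. These are shorter than the probes of miR-192 and miR-215 that gave signal, so the levels of the neighbours cannot be set against each other. The detected gut and kidney miRNAs summed to 0.00461% to 0.0916% of the signal in pregnant and to between 0% and 0.00782% in non-pregnant cows. The liver list summed to 0.00992% to 0.146% and 0.00463% to 0.216%.

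Blood-cell lists overlapped between the groups, and limma called 0 (0%) of their 2 white-cell, 6 red-cell and 2 platelet miRNAs tested. The 6 miRNAs of myeloid and other white cells, of which 3 were detected on at least 1 array, summed to 0.303% to 1.70% in pregnant and 0.179% to 0.463% in non-pregnant cows. The 8 of red cells, 7 of them detected, summed to 0.231% to 0.729% and 0.166% to 0.504%. The 6 of platelets, 3 of them detected, summed to 0.0874% to 0.435% and 0.0600% to 0.254%. miR-142-3p, miR-146a and miR-155 of white cells, miR-144 of red cells and miR-126-5p and miR-191 of platelets were not detected in any cow. The part of blood-cell RNA in the levels of miR-122, miR-192 and miR-215 was not tested. None of 7 muscle and heart, 6 brain and 3 pancreas miRNAs was detected on any array. Among the organ lists outside blood, only the liver and epithelial ones thus had detected members, which depends on how the lists were drawn. miR-375 of endocrine cells was placed in the gut list alone, and miR-192 and miR-194 in both the liver and the gut list.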

How the data were processed

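The members, miRNA lists and tests were chosen with earlier results of these data known. Per the labels' protocols, RNA came from plasma through the miRNeasy Serum/Plasma Kit, and 50 ng per cow received the dye Cy3. Per the file headers, scans were processed by Agilent Feature Extraction 11.0.1.1. The deposited intensity of a spot was spatially detrended within its array, with multiplicative detrending off, and spots without signal lie near zero; the deposited intensities are not scaled across arrays. The deposited miRNA intensity sums detected probes only and is 0.1 where none is. The authors' deposited log2 table equals log2 of that intensity plus 3.32 on all arrays and is blank where not detected. The software's flags of detection, background and outliers were used as deposited.

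Control spots and outlier spots (558 to 1149 per array) were left out; no spot was saturated. A probe counted as detected with over 50% of its spots well above background. Each array's lowest scaled signal among detected probes was found and their median served as floor, so values at it have no order. The lowest detected probe signals were 7.36 to 9.95 per array, and the number of arrays limits the precision. limma 3.58.1 in R 4.3.3 compared 4 pregnant with 3 non-pregnant arrays without covariates, two-sided. Other tests were two-sided exact permutation tests over 35 splits of the arrays or 5040 pairings of cows, in NumPy 2.4.6. Procedures were tested on simulated data. Alternatives changed the scaling, background, floor, spots, filter and arrays used.

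The named miRNAs were the 3 members, miR-223, the 3 most and 3 least like miR-122, detected liver and gut list members, and miR-142-5p, miR-451 and miR-486. Cow numbers recur in both groups, but deviations of same-numbered cows correlated at 0.094, 0.65 and -0.20, so the numbers were not taken as pairs. The 19-base miR-122 probe did rank the shared numbers alike in both groups. It read 49.3, 5.96 and 25.1 in pregnant 1, 3 and 4, and 22.9, 4.91 and 12.8 in non-pregnant 1, 3 and 4. Whether same-numbered cows are linked in their miR-122 was not tested.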

Additional observations from a re-analysis of the deposited data

How the results depend on the processing

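limma called 0 miRNAs under all 14 other settings and 7 single-array omissions run. The miR-122 difference (0.33) kept its direction in 12 of 14 settings, turned to -0.11 with normexp background correction and to -0.013 with the floor doubled, and ran from -0.18 to 1.25 with an array left out. The 12 include the unfiltered fit and the exact permutation test, neither of which could change the difference. With cow number as a replicate block the miR-122 difference was 0.31 (limma adjusted p = 0.820), and the block changed no call. Number 2 occurs in the pregnant group only, so the block takes pregnant 2 out of the difference. The value is the same as with pregnant 2 left out. With normexp the differences of miR-192 and miR-215 turned to -0.25 and -0.22. The 50 units that normexp adds to every spot make the signs of all 3 members depend in part on array brightness. Omitting single arrays gave 0.033 to 0.17 for miR-192 and 0.076 to 0.36 for miR-215, lowest without pregnant 4. The difference in share of miR-122 (0.0020 percentage points) turned to -0.12 with the 8 brightest miRNAs left out of the sum and to -0.68 as log2. That log2 value rests on the stand-in for undetected pregnant 3, and over detected values only it was 1.78. The untransformed difference ran from -0.030 to 0.058 with an array left out, negative without pregnant 1, pregnant 4, non-pregnant 3 or non-pregnant 4. The scaled r of miR-122 with miR-223 (0.56) was -0.036 without scaling, 0.86 with the 2 cows farthest from the median of miR-223 left out, and 0.41 to 0.67 with an array left out. The r with brightness (-0.89) was -0.48 without scaling and -0.97 to -0.81 with an array left out. The difference of log2 miR-122 and miR-223 stayed negative (-1.39 to -0.32 with an array left out, and -1.89 with the software's intensity, which holds the same stand-in). The r of miR-192 with miR-215 (0.954) was 0.51 with the 2 farthest cows left out and 0.81 to 0.98 with 1 left out, and the miR-192 probe difference stayed positive (3.39 to 6.72). Other causes were not tested. Longest-probe group tests and relations, including the miR-192 difference and its division by the 75th percentile, the subtraction of undetected probes, probe sums, summed brightness and log2 shares of detected values were chosen after seeing the data. Scaling on the 75th percentile of all probes was not run because that percentile was negative, at -0.291, in non-pregnant 1. miR-122 has no value with the filter to miRNAs detected on all arrays, nor miR-192 in the deposited table. Signals near background limit miR-192 and miR-215.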
